A study of Mus musculus with 9 samples.

Results

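Ribosome biogenesis is the making of ribosomes in the nucleolus. RNA polymerase I transcribes a long precursor of ribosomal RNA (rRNA), small nucleolar ribonucleoproteins (snoRNPs) modify it, and a large assembly called the small subunit processome folds and cuts the part that becomes the small subunit, while other factors build the large subunit. The genes of this pathway are known to be highly expressed in growing cells, embryonic stem cells among them, and the transcription factor Myc is a known activator of many of them. A list of 46 such genes was followed here across 3 kinds of mouse cells. A gene was taken as measured where the platform annotation gave a row of the expression table that 1 symbol, and of several such rows the one with the highest mean was used. By this rule 44 of the 46 genes were measured, among 19938 genes in all (0.221%). Npm3 and Noc2l lacked such a row and were not analysed here.

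The arrays came from cells of C57BL/6 mice. The dedifferentiated group was labelled as dedifferentiated mouse cardiac fibroblasts, the product of what the series title calls protein-based dedifferentiation; the labels name neither the protein nor the time of treatment. The ES group was labelled C57 ES cell. The fibroblast group was labelled mouse cardiac fibroblast, and the series text calls these fibroblasts adult. There were 3 samples per group, hybridised singly to Affymetrix Mouse Gene 1.0 ST arrays, which give 1 log2 expression value per row. The labels do not say if replicates were separate cultures or animals, so a p-value here reflects only how these samples spread, possibly for technical reasons, and 3 arrays per group limit the precision. Fewer cells of a type and less RNA per cell cannot be told apart in such bulk samples.

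The groups carried the markers of their labels. All 6 pluripotency markers examined passed the test as higher in dedifferentiated and in ES cells than in fibroblasts, and all 8 fibroblast markers passed as lower. Pairs of arrays correlated over genes at 0.9973 to 0.9977 among dedifferentiated cells, 0.993 to 0.9969 among ES cells and 0.9951 to 0.997 among fibroblasts. ES replicate 1 had the lowest value of its group for 60.8% of the 9606 genes whose mean reached 6 log2 units in some group, and for 32 of the 44 measured ribosome biogenesis genes. The summed level of the fibroblast markers (log2 of summed linear values) was 9.88 to 9.98 in dedifferentiated cells, 9.07 to 9.21 in ES cells and 14.56 to 14.70 in fibroblasts. Some markers of other cells passed as well, and such calls were common. Among all genes 25% rose and 22.4% fell in dedifferentiated cells over fibroblasts. Among the 9606 genes the shares were 41.7% and 36.3%. Of 8 cardiomyocyte markers 4 rose and 1 fell in dedifferentiated cells over fibroblasts, none by 1 log2 unit, with summed levels of 8.26 to 8.29 in dedifferentiated cells, 8.02 to 8.12 in ES cells and 7.97 to 8.27 in fibroblasts. Of 6 endothelial markers 4 rose and 1 fell, with summed levels of 8.67 to 8.74 in dedifferentiated cells, 8.05 to 8.27 in ES cells and 7.52 to 7.80 in fibroblasts. The largest of these rises was that of Pecam1, by 2.44. In ES cells over fibroblasts 1 of the 6 rose, Pecam1 by 2.48, and 1 fell, where 26.1% of all genes rose and 22.9% fell. Of 7 leukocyte markers 2 rose and 4 fell in dedifferentiated cells over fibroblasts. Among them the macrophage gene Lyz2 fell by 5.65, whereas Cd68 rose by 1.05. Their summed levels were 8.43 to 8.51 in dedifferentiated cells, 8.91 to 9.17 in ES cells and 9.35 to 9.64 in fibroblasts. Between dedifferentiated and ES cells 3 of 8 fibroblast markers rose, including Pdgfra by 1.37 and Dcn by 1.196. Of the 6 endothelial markers 3 rose there, including Cdh5 by 1.38. In that comparison 11.2% of all genes and 20.7% of the 9606 genes rose. The part of these markers in the results below was not tested.

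The dedifferentiated cells were first set against the fibroblasts. Ribosome biogenesis genes were higher in the dedifferentiated cells almost without exception, by a median of 1.05 log2 units. Of the 44 measured, 43 rose and 0 fell at an adjusted p under 0.05 (limma over all 19938 genes, Benjamini-Hochberg). Among all genes, 25% rose and 22.4% fell by the same rule, with a median difference of 0.01. The measured members are bright, each with a group mean of at least 6, and among the 9606 genes at that level 41.7% rose and 36.3% fell. The rise reached at least 1 log2 unit, which is 2-fold, for 24 members, against 8.79% of all genes and 16.8% of the brighter ones, and 0 members fell that far, against 10.1% and 18.5%. The arrays of both groups did not overlap for 43 members, all higher in dedifferentiated cells. That pattern held upward for 28.9% and downward for 25.8% of all genes, and for 45.6% and 39.7% of the brighter ones. The exception was Imp3, whose difference of 0.14 (95% interval -0.08 to 0.37) did not pass.

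**Figure D1:**
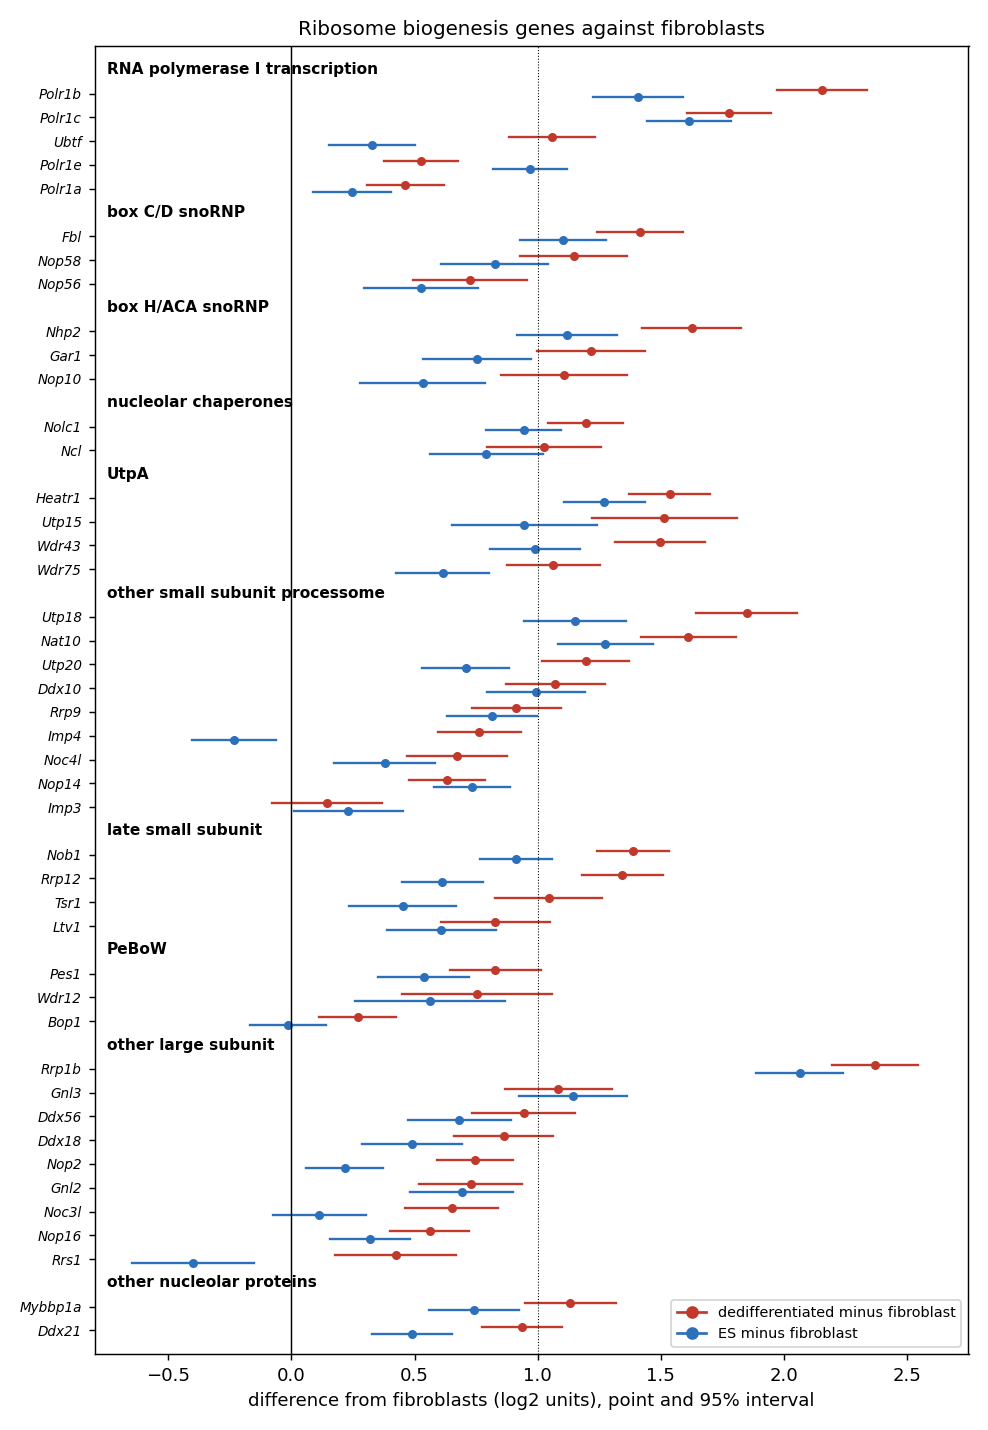
Differences from fibroblasts on the log2 scale for the 44 measured genes, grouped by role, with dedifferentiated minus fibroblast in red and ES minus fibroblast in blue. Points are group differences and bars are 95% intervals from limma, and the dotted line marks 1 log2 unit. All red points lie above 0, and the blue points of Imp4, Bop1 and Rrs1 lie below it.

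The 5 members that serve the making of the rRNA precursor were all higher in dedifferentiated cells. Polr1b, which encodes the second largest subunit of RNA polymerase I, lay at 9.55, 9.72 and 9.57 on the dedifferentiated arrays and at 7.36, 7.53 and 7.49 on the fibroblast arrays (log2 values). The groups lay more than 2 log2 units apart, and the difference was 2.16 (4.45-fold, 95% interval 1.97 to 2.34, adjusted p = 1.3e-09). Polr1c encodes a subunit that RNA polymerases I and III share. It read 10.09, 10.19 and 10.15 in dedifferentiated cells and 8.46, 8.26 and 8.38 in fibroblasts, a rise of 1.78 (1.61 to 1.95). Ubtf, the factor that opens and marks active rRNA genes, rose by 1.06 (0.89 to 1.23). The rises of Polr1a, the largest subunit, and of Polr1e, a subunit of the initiation module, were smaller, at 0.46 and 0.53. No dedifferentiated array overlapped a fibroblast array for any of these 5 genes.

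Members of both snoRNP classes rose. Box C/D snoRNPs methylate rRNA, and box H/ACA snoRNPs turn uridines into pseudouridines. Of the box C/D core proteins, the methyltransferase Fbl (fibrillarin) rose by 1.41 (1.24 to 1.59), Nop58 by 1.15 and Nop56 by 0.72. A second row of Fbl, which was dimmer, differed by 1.07. Of the box H/ACA core proteins, Nhp2 rose most, at 11.09, 11.02 and 10.91 in dedifferentiated cells and 9.56, 9.27 and 9.32 in fibroblasts, which is 1.62 log2 units (3.08-fold, 1.42 to 1.83). Gar1 rose by 1.22 and Nop10 by 1.11. Ncl (nucleolin) and Nolc1, abundant nucleolar proteins that act as chaperones of rRNA and of snoRNPs, rose by 1.03 and 1.195.

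Among small subunit factors 16 of 17 rose, with a median of 1.07. The UtpA complex binds the nascent rRNA precursor first and links its transcription to processing. Its 4 members on the list rose by 1.06 to 1.54, with Heatr1 at 1.54 (1.37 to 1.70), Utp15 at 1.51, Wdr43 at 1.497 and Wdr75 at 1.06. Utp18, of the UtpB complex, had values of 8.87, 8.85 and 8.91 in dedifferentiated cells and of 7.12, 6.95 and 7.00 in fibroblasts. The arrays of a group lay close together and the groups far apart, at a difference of 1.85 (3.60-fold, 1.64 to 2.05, adjusted p = 1.3e-08). Nat10, an acetyltransferase of rRNA, rose by 1.61, Utp20 by 1.19 and the helicase Ddx10 by 1.07. Smaller rises were those of the U3 snoRNP protein Rrp9 (0.91), Imp4 (0.76), Noc4l (0.67) and Nop14 (0.63). Imp3, which binds U3 snoRNA together with Imp4, read 8.98, 8.93 and 9.16 in dedifferentiated cells and 9.05, 8.73 and 8.86 in fibroblasts, so its groups overlapped. Among factors of late small subunit maturation, the rRNA endonuclease Nob1 rose by 1.39, Rrp12 by 1.34, Tsr1 by 1.04 and Ltv1 by 0.83.

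Large subunit factors rose in 12 of 12 cases, with a median of 0.75, and 2 of them, Rrp1b and Gnl3, by at least 1 log2 unit. The median of the small subunit factors was 1.07, and the difference between these lists was not tested. Rrp1b, a nucleolar protein related to a yeast factor of large subunit processing, had the largest rise of the list. Its values were 8.82, 8.78 and 8.76 in dedifferentiated cells and 6.55, 6.30 and 6.39 in fibroblasts, a difference of 2.37 (5.17-fold, 2.20 to 2.55, adjusted p = 4.1e-10). Gnl3 (nucleostemin), a GTP-binding protein first described in stem cells, rose by 1.08, and its relative Gnl2 by 0.73. The PeBoW complex, whose subunits are Pes1, Bop1 and Wdr12 and which is needed to mature large subunit rRNA, rose unevenly, with Pes1 at 0.83, Wdr12 at 0.75 and Bop1 at 0.27. Other large subunit factors lay between 0.42 and 0.94: the helicases Ddx56 at 0.94 and Ddx18 at 0.86, the rRNA methyltransferase Nop2 at 0.74, Noc3l at 0.65, Nop16 at 0.56 and Rrs1 at 0.42. The helicase Ddx21 and the nucleolar protein Mybbp1a rose by 0.94 and 1.13. In an alternative, each array was centred on the median of all its 35557 rows, with or without a gene symbol, which ran from 4.65 to 4.86. That shifted the median of all genes to -0.11. The rises of Bop1 (0.15) and Rrs1 (0.30) then no longer passed, and the median of the members was 0.93.

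**Figure D2:**
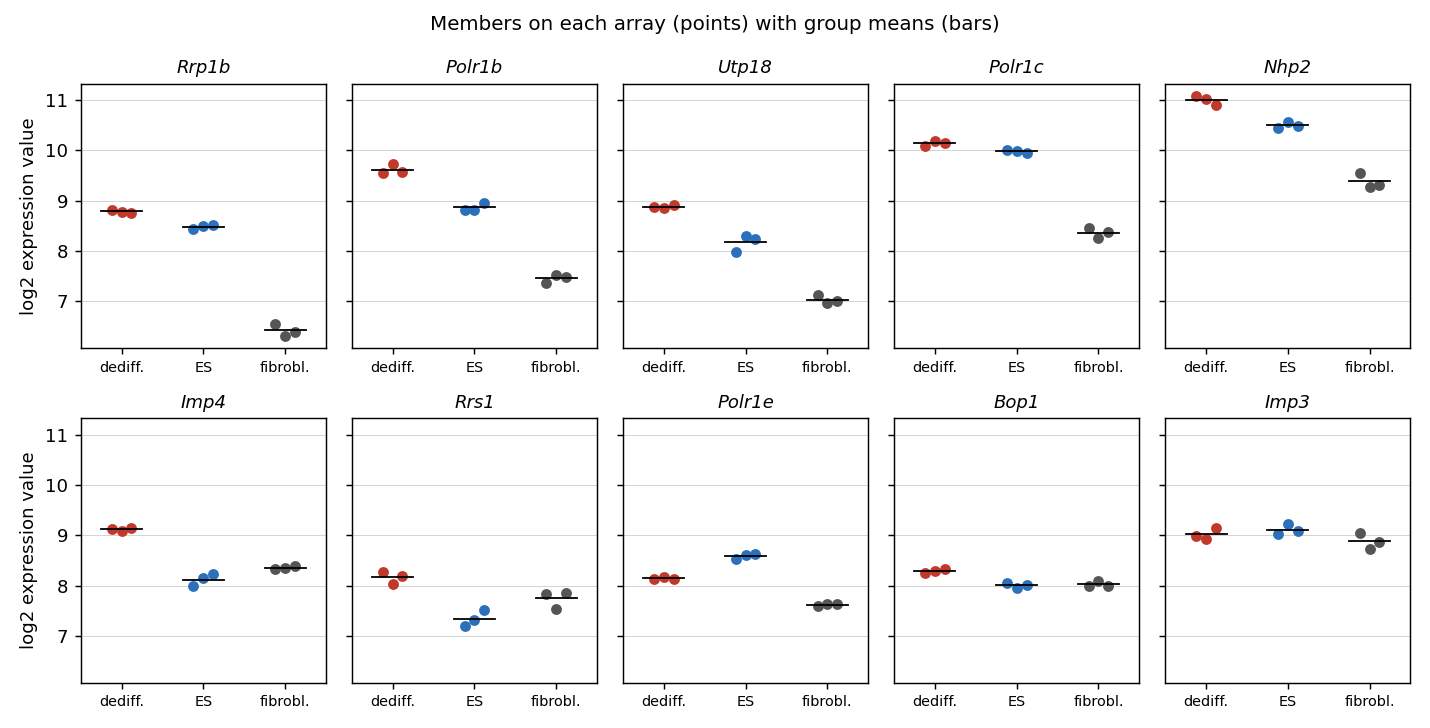
Log2 expression values of 10 ribosome biogenesis genes on every array, with dedifferentiated cells (red), ES cells (blue) and fibroblasts (grey) from left to right, points for arrays and bars for group means. The upper row shows the 5 largest rises in dedifferentiated cells over fibroblasts, from Rrp1b at 2.37 to Nhp2 at 1.62, and the lower row shows genes that depart from the common order, such as Imp4 and Rrs1, which were lowest in ES cells.

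The DNA around the members' transcription starts was searched for 3 short motifs: CACGTG, the E-box that Myc and related factors bind; GCATGC, the core of the site of the factor Nrf1; and TCGCGA, the core of a CpG-rich element that the factor Banp binds. Each motif reads the same on both strands, and matches of different motifs did not overlap in any member. Windows ran over 250 bases before and 50 bases from the start of transcription (RefSeq, build GRCm38.p6), and 39 of the 44 measured members had at least 1 window. CACGTG was in a window of 9 of these 39 genes (23.1%), against 9.5% of 15614 measured genes with a window and 12.7% of 7763 brighter ones. GCATGC was in 4 of 39 (10.3%, against 9.76% of measured and 11.9% of the brighter genes), and TCGCGA in 5 of 39 (12.8%, against 4.09% and 6.36%). Among 63 other ribosome biogenesis factors with a window the shares were 20.6% for CACGTG, 20.6% for GCATGC and 4.76% for TCGCGA, and no difference between lists was tested. The 9 genes with CACGTG were Utp18, Wdr43, Utp20, Mybbp1a, Tsr1, Ltv1, Pes1, Imp4 and Nop2, which is 5 of the 22 members with a window that rose by at least 1 log2 unit and 4 of the 17 other members with one. The 4 members with the largest rise and a match are printed to show where the match lies, over 250 bases before and 30 bases from the start, 5′ to 3′ on the gene's strand, with matches in capitals. They are Utp18 (chr11:93885737-93886016, minus strand), Polr1c (chr17:46248016-46248295, minus strand), Wdr43 (chr17:71615965-71616244, plus strand) and Nob1 (chr8:107425009-107425288, minus strand).
Utp18: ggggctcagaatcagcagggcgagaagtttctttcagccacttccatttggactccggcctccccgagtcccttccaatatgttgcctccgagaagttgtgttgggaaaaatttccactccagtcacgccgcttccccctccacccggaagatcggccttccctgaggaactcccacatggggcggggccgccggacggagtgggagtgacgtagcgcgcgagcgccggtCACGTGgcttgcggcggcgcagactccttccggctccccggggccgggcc
Polr1c: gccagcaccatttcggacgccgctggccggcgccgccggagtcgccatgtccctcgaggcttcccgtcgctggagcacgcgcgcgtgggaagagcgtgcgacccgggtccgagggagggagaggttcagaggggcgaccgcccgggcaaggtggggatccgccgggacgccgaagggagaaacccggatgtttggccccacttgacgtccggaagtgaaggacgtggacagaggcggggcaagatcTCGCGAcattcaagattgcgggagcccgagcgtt
Wdr43: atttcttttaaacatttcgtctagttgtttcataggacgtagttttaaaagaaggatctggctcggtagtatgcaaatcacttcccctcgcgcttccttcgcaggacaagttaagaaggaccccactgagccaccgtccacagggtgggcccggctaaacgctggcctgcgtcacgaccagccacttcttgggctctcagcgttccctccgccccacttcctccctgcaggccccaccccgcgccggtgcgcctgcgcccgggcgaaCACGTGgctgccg
Nob1: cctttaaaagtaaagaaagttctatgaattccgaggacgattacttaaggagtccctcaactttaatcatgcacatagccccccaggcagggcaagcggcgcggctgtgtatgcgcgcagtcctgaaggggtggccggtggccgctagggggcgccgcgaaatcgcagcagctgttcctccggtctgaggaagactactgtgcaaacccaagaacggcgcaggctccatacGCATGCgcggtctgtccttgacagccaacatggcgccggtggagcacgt
Counted from 1 at the first transcribed base, with -1 just before it, CACGTG spans bases -20 to -15 in Utp18 and 18 to 23 in Wdr43, TCGCGA spans -4 to 2 in Polr1c, and GCATGC spans -19 to -14 in Nob1. A match describes letters in this window and is not a measured binding site. Rrp1b and Polr1b, which had the largest rises, held none of the 3 motifs in their windows.

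The second comparison set the ES cells against the same fibroblasts. The pathway was higher in ES cells as well, by a median of 0.70 log2 units. Of the 44 members 39 rose and 2 fell, where 26.1% of all genes rose and 22.9% fell (42% and 37.2% of the brighter genes), and all genes had a median difference of 0.02. A rise of at least 1 log2 unit was reached by 9 members, against 8.85% of all genes and 16.8% of the brighter ones, and 0 members fell that far, against 10.4% and 19.1%. The arrays did not overlap for 39 members that were higher and 2 that were lower in ES cells, against 27.6% and 24.4% of all genes and 43.1% and 38.4% of the brighter ones. A further quantile normalization gave 16 rises of at least 1 log2 unit and 40 rises in all. The 9 were Rrp1b at 2.06, Polr1c at 1.62, Polr1b at 1.41, Nat10 at 1.27, Heatr1 at 1.27, Utp18 at 1.15, Gnl3 at 1.14, Nhp2 at 1.12 and Fbl at 1.102. The second row of Fbl gave 0.895, below that size, and the second row of Wdr12 gave 0.145 where the row used gave 0.563.

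Rrp1b read 8.44, 8.49 and 8.51 on the ES arrays and 6.55, 6.30 and 6.39 on the fibroblast arrays, so it led this comparison too (4.18-fold, 95% interval 1.89 to 2.24, adjusted p = 1.2e-09). Nat10 read 8.37, 8.56 and 8.63 in ES cells and 7.24, 7.29 and 7.20 in fibroblasts, without overlap. The members that fell were Imp4 and Rrs1. Rrs1, a regulator of large subunit assembly, had 7.20, 7.32 and 7.51 in ES cells and 7.83, 7.54 and 7.86 in fibroblasts, a difference of -0.40 (-0.65 to -0.15, adjusted p = 0.011). Imp4 had 7.99, 8.15 and 8.22 in ES cells and 8.34, 8.35 and 8.38 in fibroblasts, a difference of -0.23 (-0.40 to -0.06, adjusted p = 0.025). That of Imp4 did not pass without fibroblast replicate 3 (-0.22) or ES replicate 1 (-0.17), after another quantile normalization (-0.16) or with only the 2 groups fitted. Bop1 (-0.01, 95% interval -0.17 to 0.14), Noc3l (0.11) and Imp3 (0.23) did not pass. Imp3 did pass without fibroblast replicate 1 (0.32), after another quantile normalization (0.335) and with array weights (0.28). Nop2 rose by 0.22 and lost its call without fibroblast replicate 2 (0.19) or 3 (0.22), or ES replicate 2 (0.21) or 3 (0.19), or with only those groups fitted. With each array centred on the median of all its rows, 34 members rose, and Polr1a, Ubtf, Noc4l, Nop2 and Nop16 no longer passed.

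The third comparison asked whether dedifferentiated cells differed from ES cells in this pathway. Ribosome biogenesis genes were moderately higher in the dedifferentiated cells, with a median difference of 0.32 log2 units and a largest rise of 0.997. Of the 44 members 30 rose and 1 fell, where 11.2% of all genes rose and 10% fell. Among the brighter genes the shares were 20.7% and 16.9%, with a median difference of 0.03. No member reached 1 log2 unit, which 1.01% of all genes did as rises and 0.547% as falls (1.94% and 1.05% of the brighter genes). The arrays of the groups did not overlap for 35 members, of which 34 were higher and 1 lower in dedifferentiated cells, against 16.9% and 15.6% of all genes and 28.8% and 23.4% of the brighter genes. The comparisons are not independent of each other, since each pair of them shares the 3 arrays of 1 group.

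Imp4 differed most. It lay at 9.12, 9.10 and 9.14 in dedifferentiated cells and at 7.99, 8.15 and 8.22 in ES cells, a rise of 0.997 (95% interval 0.83 to 1.17, adjusted p = 1.2e-05). Every dedifferentiated array was above every ES array by more than the whole spread within either group. Rrs1, at 8.28, 8.04 and 8.18 in dedifferentiated cells and 7.20, 7.32 and 7.51 in ES cells, rose by 0.82 (0.58 to 1.07). Both were also the members lower in ES cells than in fibroblasts, a comparison that uses the same ES arrays. Polr1b, at 9.55, 9.72 and 9.57 in dedifferentiated cells and 8.81, 8.82 and 8.96 in ES cells, rose by 0.75 (0.57 to 0.93). Ubtf, at 9.41, 9.50 and 9.52 in dedifferentiated cells and 8.78, 8.64 and 8.82 in ES cells, rose by 0.73 (0.56 to 0.91). Rrp12, at 8.44, 8.52 and 8.44 in dedifferentiated cells and 7.73, 7.68 and 7.79 in ES cells, rose by 0.73 (0.57 to 0.89). These 5 members come from rRNA transcription, the small subunit and the large subunit, and none of them had overlapping arrays.

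Polr1e went the other way. It lay at 8.13, 8.18 and 8.13 in dedifferentiated cells and at 8.53, 8.62 and 8.62 in ES cells, and fell by 0.44 (95% interval -0.59 to -0.29, adjusted p = 9.1e-04). Within the polymerase, its subunit genes therefore had unequal differences between the same cells, from 0.75 for Polr1b through 0.22 for Polr1a and 0.16 for Polr1c, neither of which passed, to -0.44 for Polr1e. Polr1a passed at the same difference without fibroblast replicate 2, under either filter on dim genes and with variances fitted along intensity. With array weights it passed as well, at 0.22. Its dedifferentiated and ES arrays did not overlap. The box H/ACA proteins Nop10, Nhp2 and Gar1 rose by 0.58, 0.51 and 0.46. Of the box C/D proteins, Nop58 and Fbl rose by 0.32 and 0.31 (0.174 in the second row of Fbl), and the difference of Nop56, 0.20 (-0.03 to 0.43), did not pass. All 4 UtpA members rose, by 0.27 for Heatr1 to 0.57 for Utp15. In total 13 members did not pass, among them Gnl3 at -0.06 (-0.28 to 0.16), Gnl2 at 0.04 (-0.17 to 0.25), Ddx10 at 0.08 and Nop14 at -0.10. Wdr12 differed by 0.19 in the row used, which did not pass, and by 0.428 in its second row. Without ES replicate 3, Nop56 (0.32) and Ddx56 (0.33) passed. With array weights Nop56, Ddx56 and Ncl passed, and Ddx56 also did under either filter on dim genes and with a replicate block.

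The count of rises in this comparison depended on single arrays. It was 19 without dedifferentiated replicate 3, 21 without dedifferentiated replicate 1 and 23 without dedifferentiated replicate 2, and between 25 and 31 without any other array. Of the 31 members that passed, 19 passed under every alternative tried. The others were Bop1, Ddx18, Fbl, Heatr1, Nat10, Noc4l, Nolc1, Nop16, Nop58, Pes1, Rrp1b and Utp15, each of which lost its call when some array was left out. The median of the members stayed between 0.29 and 0.38 when any array was left out, and the count was 25 without ES replicate 1, the array that stood lowest in its group.

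**Figure D3:**
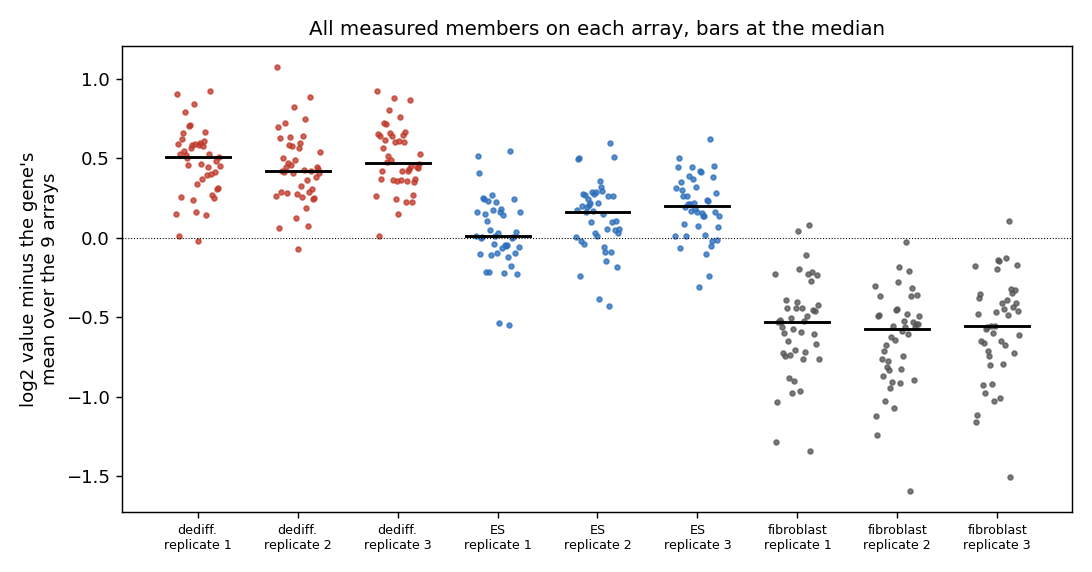
Log2 value of each of the 44 measured genes minus its own mean over the 9 arrays, for each dedifferentiated (red), ES (blue) and fibroblast (grey) array. Bars mark the median over genes. The dedifferentiated arrays lie highest, the ES arrays in the middle with replicate 1 lowest among them, and the fibroblast arrays lowest.

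Set side by side, the group means of 37 of the 44 members ran in the order of dedifferentiated cells highest, ES cells next and fibroblasts lowest, an order that held for 20.2% of all genes and 24.2% of the brighter ones. For 30 members the arrays of all 3 groups were separated in that order, against 5.8% of all genes and 10.9% of the brighter genes. The median member value per array was 9.35, 9.33 and 9.46 in dedifferentiated cells, 8.89, 9.09 and 9.10 in ES cells and 8.36, 8.28 and 8.35 in fibroblasts. Over all genes the array medians lay within 5.27 and 5.37. Over the brighter genes they lay within 7.31 and 7.48, lowest on ES replicate 1 and highest on ES replicate 3. The members had a median SD within groups of 0.063 in dedifferentiated cells, 0.106 in ES cells and 0.083 in fibroblasts (n = 3 each). Over all genes the median SD was 0.076, 0.127 and 0.105 in the same groups. The 7 members outside that order were Imp4, Bop1 and Rrs1, with the lowest mean in ES cells, and Polr1e, Nop14, Imp3 and Gnl3, with the highest mean there.

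Other genes of the pathway were examined through 3 further lists. Of 77 other ribosome biogenesis factors measured, 71 rose and 1 fell in dedifferentiated cells over fibroblasts (median 0.90). Among all genes 25% rose and 22.4% fell there. In ES cells over fibroblasts 62 rose and 4 fell (median 0.61), where 26.1% of all genes rose and 22.9% fell. In dedifferentiated over ES cells 36 rose and 3 fell (median 0.25), where 11.2% of all genes rose and 10% fell. Among the brighter genes the shares were 41.7% and 36.3%, 42% and 37.2%, and 20.7% and 16.9%, in the same order. Mdn1, a giant ATPase that remodels large subunit precursors, rose by 2.06 in dedifferentiated cells and 1.68 in ES cells over fibroblasts. Urb2, a nucleolar protein of large subunit assembly, rose by 2.03 and 1.68 in the same comparisons. Zcchc9 fell in dedifferentiated cells over fibroblasts, by 0.47, and the helicases Dhx33 and Ddx24 fell in ES cells over fibroblasts, by 0.48 and 0.42. Between dedifferentiated and ES cells, the helicase Ddx51 and the small subunit factor Bysl rose by 0.73 and 0.72, and Rexo4 and Ebna1bp2 fell by 0.45 and 0.37.

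Of 10 other RNA polymerase I factors, 8 rose and 1 fell in dedifferentiated cells over fibroblasts. In ES cells over fibroblasts 9 rose and 1 fell. Among all genes 25% rose and 22.4% fell in the first comparison, and 26.1% rose and 22.9% fell in the second. In dedifferentiated over ES cells 3 rose and 0 fell, where 20.7% of the brighter genes rose and 16.9% fell. The arrays of these groups overlapped for 6 of the 10, against 13439 of all 19938 genes and 4589 of the 9606 brighter ones. Taf1d and Taf1a, subunits of the selectivity factor that places the polymerase on rRNA genes, rose by 1.90 and 1.28 in dedifferentiated cells and by 1.84 and 1.08 in ES cells. The polymerase subunit gene Cd3eap was the member that fell. It lay at 6.99, 6.97 and 6.93 in dedifferentiated cells, 6.38, 6.37 and 6.33 in ES cells and 7.30, 7.30 and 7.12 in fibroblasts, and so differed from fibroblasts by -0.28 in dedifferentiated cells and -0.88 in ES cells, and by 0.60 between dedifferentiated and ES cells. Taf1c rose by 0.64 between dedifferentiated and ES cells. Of 14 genes of the RNA exosome and other rRNA decay factors, 12 rose in dedifferentiated cells and 11 in ES cells over fibroblasts. Among all genes 25% and 26.1% rose in these comparisons, and among the brighter genes 41.7% and 42%. The exosome subunits Exosc7 (1.497 and 1.22) and Exosc5 (1.46 and 1.42) led the list. C1d fell in ES cells over fibroblasts, by 0.56. In dedifferentiated over ES cells 4 of the 14 rose, against 20.7% of the brighter genes, with Exosc10 at 0.43 and Exosc7 at 0.28.

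The proteins of the finished ribosome were examined in the same way. Of 79 cytosolic ribosomal protein genes listed, 55 were measured, and several of these match more than 1 row or near-identical gene copies, so their values are uncertain. Against fibroblasts 49 rose and 0 fell in dedifferentiated cells, and 52 rose and 0 fell in ES cells, with medians of 0.53 and 0.56. Among all genes 25% rose and 22.4% fell in the first comparison, and 26.1% rose and 22.9% fell in the second. Rpl14 and Rpl12 led the dedifferentiated cells at 1.09 and 1.06, and Rps15a and Rpl36 the ES cells at 1.06 and 0.99. In dedifferentiated over ES cells 0 of 55 rose and 1, Rps14, fell, by 0.27 (95% interval -0.44 to -0.10), and the median was -0.04. For the same cells 30 of 44 ribosome biogenesis genes rose, with a median of 0.32, where 11.2% of all genes rose and 10% fell. The difference between these lists was not tested.

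**Figure D4:**
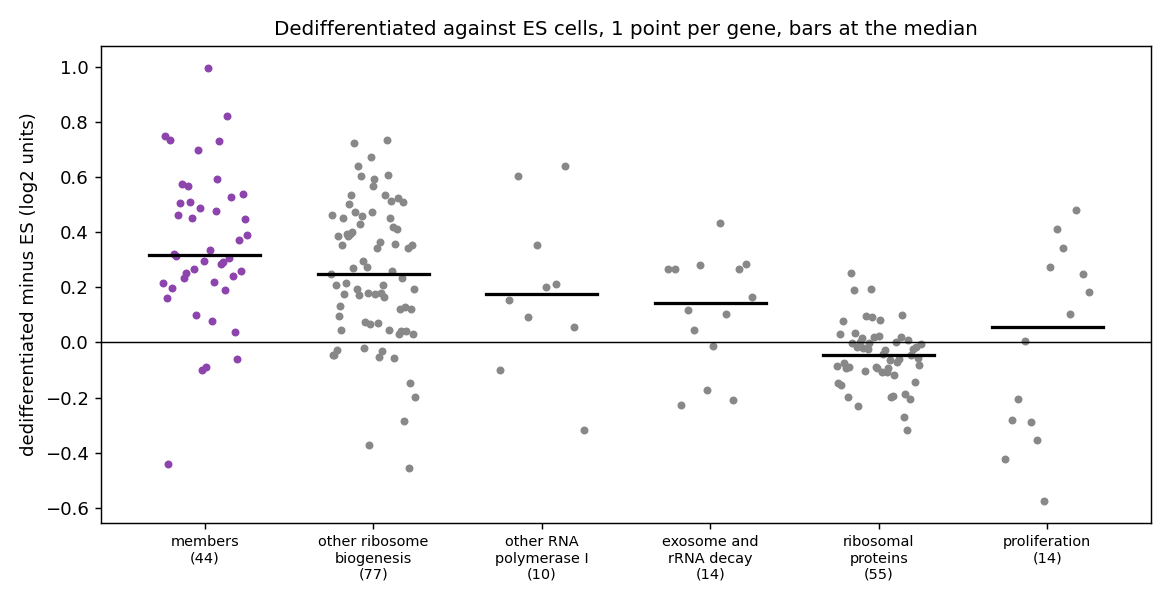
Difference between dedifferentiated and ES cells on the log2 scale for the 44 measured ribosome biogenesis genes (purple) and for 5 other gene lists (grey), 1 point per gene, with the number of genes in brackets and bars at the medians. The medians are 0.32 for the members, 0.25 for other ribosome biogenesis factors and -0.04 for ribosomal proteins.

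Genes of the Myc network and of proliferation were examined beside the pathway, and their part in its differences was not tested. Of 10 Myc network genes 5 rose and 2 fell in dedifferentiated cells over fibroblasts, where 41.7% of the brighter genes rose and 36.3% fell. In ES cells over fibroblasts 5 rose and 3 fell, where 42% and 37.2% of the brighter genes did. Between dedifferentiated and ES cells 4 rose and 0 fell, where 20.7% and 16.9% of the brighter genes did. Mycn lay at 10.17, 10.19 and 10.12 in dedifferentiated cells, 9.51, 9.51 and 9.60 in ES cells and 6.62, 6.90 and 6.99 in fibroblasts, also with no overlap. It rose by 3.32 (95% interval 3.11 to 3.53) in dedifferentiated and by 2.70 in ES cells over fibroblasts, and by 0.62 between dedifferentiated and ES cells. Myc itself lay at 7.97, 7.95 and 7.99 in dedifferentiated cells, 5.53, 5.86 and 5.58 in ES cells and 8.84, 8.76 and 8.84 in fibroblasts, with no overlap between groups. It fell by 0.84 in dedifferentiated and by 3.16 in ES cells over fibroblasts, and rose by 2.31 (95% interval 2.11 to 2.51) between dedifferentiated and ES cells. Mga rose by 1.61 in dedifferentiated and 1.52 in ES cells over fibroblasts, and Mxd4, a repressor that competes with Myc for its partner Max, fell by 2.10 and 2.64. Of 14 proliferation genes, 13 rose in dedifferentiated and 14 in ES cells over fibroblasts, with medians of 1.32 and 1.25. Among all genes 25% and 26.1% rose in these comparisons, and among the brighter genes 41.7% and 42%. The replication helicase gene Mcm2 rose by 2.02 in dedifferentiated cells, and the mitosis genes Bub1 and Top2a by 2.12 and 1.75 in ES cells. Between dedifferentiated and ES cells 3 proliferation genes rose and 3 fell, where 20.7% of the brighter genes rose and 16.9% fell, so these counts are near the background. Mcm5 differed by 0.48 and Mcm2 by 0.41, and Aurkb and Mki67 by -0.58 and -0.42. Mki67, a marker of cycling cells, lay at 8.86, 8.68 and 8.68 in dedifferentiated cells and 9.07, 9.19 and 9.22 in ES cells.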

How the data were processed

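RNA of 9 samples in 3 groups of 3 was hybridised to 1-colour Affymetrix arrays. The deposited values are log2 expression values that the authors made with RMA in Affymetrix Expression Console 1.1, per the submitters' processing notes. RMA corrects background, quantile-normalizes and summarises each row, so a shift shared by every transcript is removed, and differences of dim genes are compressed. There is no detection call. Titles set the groups, because the fibroblasts' source label also mentions ES cells.

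Of 35557 rows, 21789 had 1 gene symbol in the platform annotation, 1621 had several and 12147 were not listed; 999 genes had more than 1 row, including Fbl, Wdr12 and Ddx18 of the members. A single linear model over the 9 arrays was fitted with limma 3.58.1 in R 4.3.3, and a gene passed at a Benjamini-Hochberg adjusted p under 0.05 over 19938 genes. Members and lists were chosen with earlier results of these data known. Every member may be named; from other lists the 2 largest rises and 2 largest falls that passed in a comparison, with Myc, Mycn and Mki67. On simulated data of 19938 genes, 35 of 67 genes with a true difference of 0.5 log2 units passed and 67 of 67 with one of 1.5 for dedifferentiated cells against fibroblasts, 38 of 67 and 67 of 67 for ES cells against fibroblasts, and 37 of 67 and 65 of 67 for dedifferentiated against ES cells. Each simulation changed only 67, 67 and 66 genes, by 0.5, 1.5 and 3 log2 units. In the real data 25% of all genes rose and 22.4% fell in dedifferentiated cells over fibroblasts. The simulated pass rates therefore need not hold for the real comparisons. Of the unchanged genes 9, 11 and 5 passed in the 3 simulated comparisons. Alternatives covered normalization, filters on dim genes, rows tested, variance models, array weights, samples fitted, a replicate block and leaving out each array.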

Additional observations from a re-analysis of the deposited data

How the results depend on the processing

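Each comparison was refitted under 20 alternatives. In dedifferentiated cells over fibroblasts 41 of 43 calls held under all of them, in ES cells over fibroblasts 35 of 41, and in dedifferentiated over ES cells 19 of 31, and no call reversed. Centring arrays on the medians of all rows put the median of all genes at -0.11 in dedifferentiated and -0.10 in ES cells over fibroblasts (0.01 and 0.02 as deposited). It put the members' medians at 0.93 and 0.58. For ES cells over fibroblasts, another quantile normalization gave 16 rises of at least 1 log2 unit and 1 fall, and fitting only those 2 groups also gave 1 fall. Leaving out single arrays gave, for dedifferentiated cells over fibroblasts, 43 rises, 0 falls, 23 to 25 rises of at least 1 log2 unit and a median of 1.01 to 1.09. For ES cells over fibroblasts it gave 38 to 40 rises, 1 to 2 falls, 9 to 13 rises of at least 1 log2 unit and a median of 0.63 to 0.74. For dedifferentiated over ES cells it gave 19 to 31 rises, 1 fall, 0 to 1 rise of at least 1 log2 unit and a median of 0.29 to 0.38. The member at that size was Imp4. With the replicate number as a block the counts of rises were 43, 39 and 29 for the 3 comparisons. The numbers were not taken as pairs, since deviations of same-numbered arrays correlated at -0.204 to 0.25, over 0.1 in 3 of 9 pairs, and at -0.241 to 0.324 for 18 pairs of different number. Beyond what the alternatives show by their construction, the cause of these changes was not tested.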
